A study of Mus musculus with 6 samples.

Results

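The 10 genes described here form the ATF4 and CHOP stress response core. They are *Atf4*, *Ddit3* (the gene of CHOP), *Atf3*, *Atf5*, *Cebpb*, *Cebpg*, *Trib3*, *Ppp1r15a*, *Chac1* and *Sesn2*, taken by name from the 56747 genes of a Ribo-seq count table. All 10 were found and all had enough counts to be tested, among 13100 genes tested. The libraries came from primary pancreatic islets of male C57BL/6J mice aged 6 to 8 weeks, with 3 libraries from islets in high glucose (25 mM) and 3 from islets in low glucose (2.5 mM), each for 2 h. Before that, the islets of both conditions had spent 4 h in medium without glucose. Each library pooled several mice, and cycloheximide, which holds ribosomes in place, was present for the last 15 min. In Ribo-seq the mRNA pieces shielded by ribosomes (footprints) are sequenced and counted, so a gene's count rises with its mRNA amount and with the ribosomes each mRNA carries.

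ATF4 is a bZIP transcription factor and the main effector of the integrated stress response. When kinases such as PERK or GCN2 phosphorylate the initiation factor eIF2, protein synthesis falls as a whole, while mRNAs with short upstream reading frames, among them those of ATF4, ATF5, CHOP and GADD34, are translated better. ATF4 then switches on CHOP, and both drive genes of amino acid supply, feedback and cell death, a route well known in beta cells because of their heavy load of proinsulin folding.

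The capitals in the sequences below mark short motifs found in the promoters of 4 of the 10 genes, shown because ATF4 is known to act through the first of them. The windows, from RefSeq (build GRCm38.p6), ran over 250 bases before and 50 bases after each gene's start. All 10 genes matched, with 11 windows in all, and a gene counted if any of its windows held the motif. The share over all windows counts each window by itself. TGATGNAA, the core of the element bound by dimers of ATF4 and C/EBP factors, was searched on both strands and occurred in 3 of the 10 genes and in 3.97% of all 32851 windows.
Chac1: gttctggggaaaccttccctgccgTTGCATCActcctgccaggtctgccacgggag
Atf3: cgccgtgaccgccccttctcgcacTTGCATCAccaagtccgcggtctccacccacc
Trib3: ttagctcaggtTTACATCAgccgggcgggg
In *Chac1* (chr2:119351025-119351080, plus strand) the match lay 193 bases before the start, in *Atf3* (chr1:191183412-191183467, minus strand) 110 bases before it, and in *Trib3* (chr2:152344028-152344057, minus strand) just after it. All 3 matches read as the reverse complement of the motif. TGACGTCA, the full cAMP response element bound by CREB and ATF dimers, reads the same on both strands and occurred in *Ppp1r15a* alone among the 10 genes, and in 1.79% of all windows.
Ppp1r15a: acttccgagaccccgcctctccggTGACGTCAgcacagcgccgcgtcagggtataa
This stretch (chr7:45526249-45526304, minus strand) lay with its motif 12 bases before the start. The ER stress element, CCAAT followed after 9 bases by CCACG on either strand, was in none of the windows of the 10 genes and in 0.119% of all windows. A match of letters does not show that a factor binds there, and other letters outside these windows were not searched.

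Most of these genes held a smaller share of the footprints in high glucose. Of the 10 genes, 8 fell at an adjusted p under 0.05, against 10.2% of all genes tested, and 0 rose, against 12.1% of all genes tested (edgeR's quasi-likelihood test, Benjamini-Hochberg over all genes). *Ppp1r15a* and *Cebpb* did not pass. In 9 of the 10 genes all 3 high-glucose libraries lay below all 3 low-glucose libraries, which was so for 18.0% of all genes tested. The median log2 fold change (log2FC, high over low glucose) was -1.27 over the 10 genes and -0.01 over all genes tested. Their summed level was 294, 274 and 287 CPM (counts for each 1000000 in a library, with library sizes scaled by edgeR's TMM factors) in the high-glucose libraries and 756, 836 and 836 CPM in the low-glucose libraries. As a share of all counts this is 0.0269% to 0.0289% in high glucose and 0.0772% to 0.0846% in low glucose. Islets are a mixture, so fewer cells of a type, less RNA per cell and fewer ribosomes per mRNA cannot be told apart in these sums. CPM are relative to the library, so a rise or fall of all footprints together is not seen in them. A fall here and below therefore means a smaller share, and the number of footprints per islet was not measured.

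Among the libraries' other features, total counts were 16322162 to 20692579 in high glucose and 9242549 to 12175699 in low glucose. Beta cell markers, insulin genes included, were abundant in all 6 libraries, at a summed 161000 to 176000 CPM in high glucose and 131600 to 147600 CPM in low glucose, and 6 of 9 rose while 2 fell. Of 7 alpha cell markers 4 fell and 0 rose (summed 47240 to 50850 CPM in high glucose and 58890 to 62640 CPM in low glucose). Of the markers of delta and PP cells (5), endothelial cells (7) and stellate cells (7), 2 of each fell and 0 rose, of 9 macrophage markers 1 fell and 0 rose, and of 5 ductal markers tested 2 rose and 0 fell. Delta and PP markers summed to 9587 to 10030 CPM in high and 11050 to 11350 CPM in low glucose. In the same order, endothelial markers had 166 to 179 and 217 to 229 CPM, and stellate markers 96.5 to 111.5 and 136.3 to 146.5 CPM. Macrophage markers had 74.4 to 75.5 and 92.5 to 106 CPM. Ductal markers went the other way, with 1803 to 1923 and 1547 to 1588 CPM. Acinar cells are the enzyme-secreting cells around the islets. Of 15 acinar markers 14 were tested, 13 fell and 0 rose in high glucose, *Amy2a5* was at 0 in all libraries, and their summed level was 332 to 355 CPM in high glucose and 766 to 822 CPM in low glucose. For comparison, 12.1% of all genes tested rose and 10.2% fell. The part of any of these cell types in the values of the 10 genes was not tested.

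**Figure D1:**
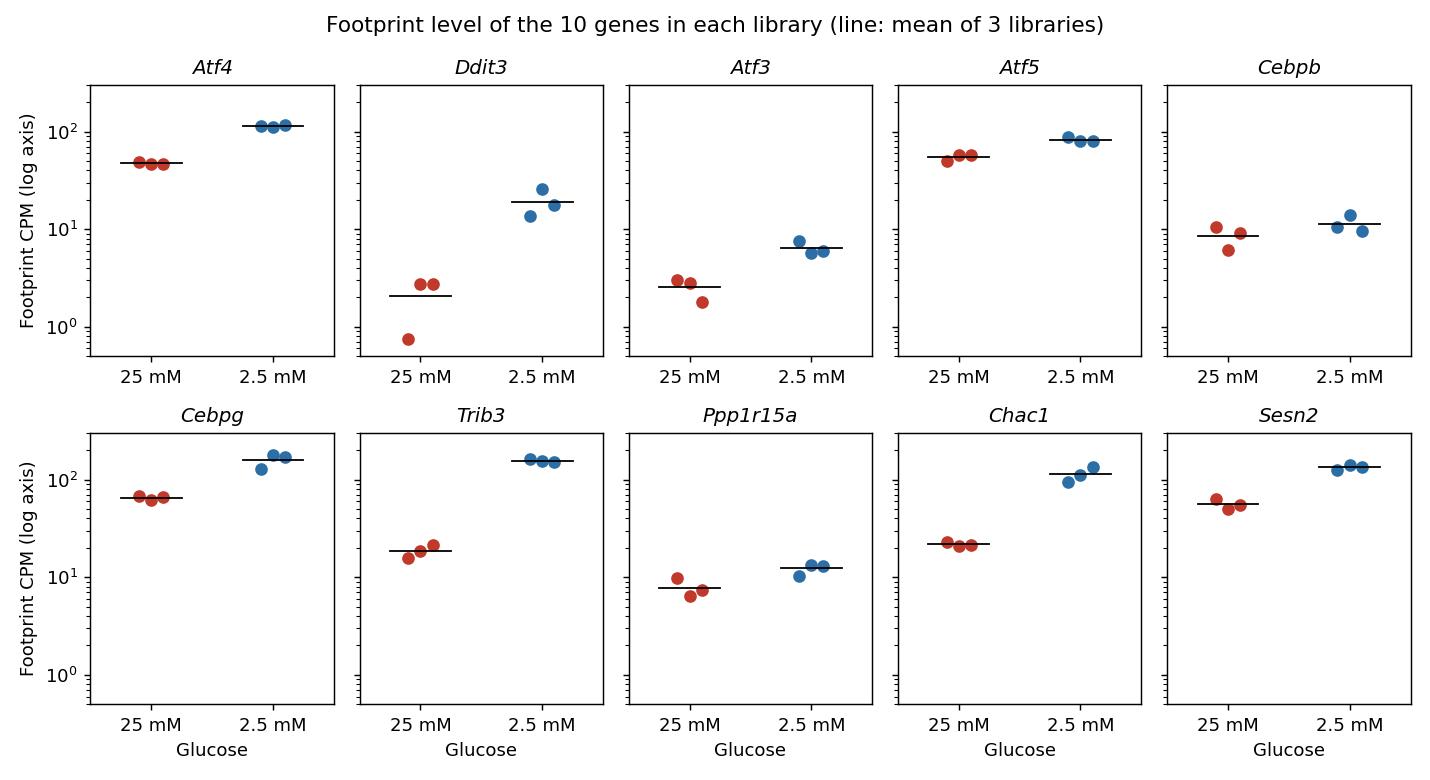
Footprint level in CPM (log axis) of each gene in the 3 high-glucose libraries (25 mM, red) and the 3 low-glucose libraries (2.5 mM, blue), with a line at each mean. The conditions are apart in every gene but *Cebpb*, and farthest apart in *Ddit3* and *Trib3*.

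*Atf4* itself (ENSMUSG00000042406, chromosome 15) had 49.2, 46.7 and 46.1 CPM in high glucose and 113.9, 110.5 and 115.3 CPM in low glucose. Libraries of a condition lay close together and the conditions were far apart. The means were 47.3 ± 1.65 CPM in high glucose and 113 ± 2.44 CPM in low glucose (SD, n = 3 per condition), a log2FC of -1.26 (SE 0.09, edgeR adjusted p = 1.68e-09), which left 41.8% of the low-glucose level. These means rest on 778 to 934 footprints per library in high glucose and 1075 to 1419 in low glucose.

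*Ddit3* (ENSMUSG00000025408, chromosome 10), whose product CHOP promotes death of cells under lasting ER stress, had 0.746, 2.76 and 2.77 CPM in high glucose and 13.8, 25.8 and 17.6 CPM in low glucose. Every low-glucose library lay far above every high-glucose library, and high-glucose replicate 1 lay below the other two of its condition. That library held 12 footprints (exact Poisson 95% interval 6.20 to 21.0, counting error only), against 46 and 56 in the others of high glucose and 130, 301 and 217 in low glucose. The means were 2.09 ± 1.16 CPM in high glucose and 19.1 ± 6.15 CPM in low glucose (SD, n = 3 per condition), and the log2FC was -3.17 (SE 0.36, edgeR adjusted p = 9.26e-07). The level was 9.02-fold lower in high glucose, and over the 18 alternative settings the log2FC ran from -3.43 to -2.79. *Ddit3* overlaps *Mars1* on the opposite strand (2195 to 3192 footprints in high glucose and 1682 to 2184 in low glucose, log2FC = -0.29), and whether reads from the overlap were counted was not tested. The table also lists a gene of the same name with 105 bases (ENSMUSG00000116429), which had 0 counts in all 6 libraries.

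Of the 4 bZIP partners of ATF4 and CHOP among the 10 genes, 3 fell (75%, against 10.2% of all genes tested). *Cebpg* (ENSMUSG00000056216, chromosome 7), a C/EBP factor that dimerizes with ATF4, had 68.1, 62.4 and 66.0 CPM in high glucose and 128.1, 180.2 and 170.8 CPM in low glucose. The conditions did not overlap, with low-glucose replicate 1 under the other two of its condition. Its means were 65.5 ± 2.88 CPM in high glucose and 160 ± 27.7 CPM in low glucose (SD, n = 3 per condition; log2FC = -1.29, SE 0.11, edgeR adjusted p = 8.11e-09), a fall nearly equal in size to that of *Atf4*.

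*Atf5* (ENSMUSG00000038539, chromosome 7), a close relative of ATF4 that is also controlled by upstream reading frames and supports the mitochondrial stress response, had 50.3, 57.0 and 57.2 CPM in high glucose and 87.8, 79.2 and 80.4 CPM in low glucose. The conditions were apart but by less than in *Atf4*. It kept 66.6% of its low-glucose level (log2FC = -0.59, SE 0.10, edgeR adjusted p = 0.000195). *Nup62*, which overlaps *Atf5* on the opposite strand, had 552 to 739 footprints in high glucose and 348 to 395 in low glucose (log2FC = 0.04, adjusted p = 0.889). Whether counting used the strand is not given in the sources used here.

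*Atf3* (ENSMUSG00000026628, chromosome 1), an early stress-induced factor that can repress its own targets, was rare, with 3.05, 2.82 and 1.78 CPM in high glucose and 7.63, 5.75 and 5.93 CPM in low glucose. The conditions did not overlap, but each library held only 36 to 49 footprints in high glucose and 67 to 73 in low glucose. Its log2FC was -1.34 with an SE of 0.39 (edgeR adjusted p = 0.016). The call was lost without high-glucose replicate 3 (log2FC = -1.13, adjusted p = 0.0695) or without low-glucose replicate 1 (log2FC = -1.21, adjusted p = 0.0583).

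*Cebpb* (ENSMUSG00000056501, chromosome 2), a C/EBP factor that pairs with both ATF4 and CHOP, had 10.6, 6.12 and 9.04 CPM in high glucose and 10.5, 14.1 and 9.59 CPM in low glucose. High-glucose replicate 1 lay above 2 of the 3 low-glucose libraries. Its log2FC was -0.41 (95% interval -0.97 to 0.15, edgeR adjusted p = 0.309), an interval that reaches both a clear fall and a slight rise.

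Of the 4 feedback inhibitors and effectors among the 10 genes, 3 fell (75%, against 10.2% of all genes tested). *Trib3* (ENSMUSG00000032715, chromosome 2), a pseudokinase induced by ATF4 and CHOP that in turn restrains ATF4 and the kinase AKT, had 15.8, 18.8 and 21.5 CPM in high glucose and 162.3, 155.7 and 152.2 CPM in low glucose. The lowest low-glucose library stood far above the highest high-glucose library. Means were 18.7 ± 2.88 CPM in high glucose and 157 ± 5.09 CPM in low glucose (SD, n = 3 per condition; log2FC = -3.06, SE 0.11, edgeR adjusted p = 8.61e-15), an 8.35-fold lower level in high glucose. By adjusted p it had rank 5 among the 13100 genes tested.

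*Chac1* (ENSMUSG00000027313, chromosome 2), which breaks down glutathione, had 22.7, 21.1 and 21.3 CPM in high glucose and 95.4, 111.5 and 135.1 CPM in low glucose. The high-glucose libraries were tightly grouped, and the low-glucose libraries were spread and all higher. It kept 19.0% of its low-glucose level (21.7 ± 0.883 CPM in high glucose and 114 ± 19.98 CPM in low glucose, SD, n = 3 per condition; log2FC = -2.40, SE 0.12, edgeR adjusted p = 3.7e-12).

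*Sesn2* (ENSMUSG00000028893, chromosome 4), a stress-induced sestrin that senses leucine and holds back mTORC1, had 63.4, 50.1 and 54.4 CPM in high glucose and 126.5, 140.0 and 135.8 CPM in low glucose. The conditions did not overlap. Its means were 56.0 ± 6.76 CPM in high glucose and 134 ± 6.87 CPM in low glucose (SD, n = 3 per condition; log2FC = -1.26, SE 0.10, edgeR adjusted p = 4.01e-09).

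*Ppp1r15a* (ENSMUSG00000040435, chromosome 7) encodes GADD34, which brings protein phosphatase 1 to eIF2 and so ends the response. It had 9.76, 6.42 and 7.31 CPM in high glucose and 10.4, 13.5 and 13.2 CPM in low glucose. The conditions came close without overlapping, between high-glucose replicate 1 and low-glucose replicate 1. Its log2FC was -0.66 (95% interval -1.19 to -0.13, edgeR adjusted p = 0.0686), which missed the threshold. It passed with limma-voom (log2FC = -0.70, adjusted p = 0.0488), without high-glucose replicate 1 (log2FC = -0.85, adjusted p = 0.0438) and without low-glucose replicate 1 (log2FC = -0.77, adjusted p = 0.0484).

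Within each library the genes were next set against *Atf4*, so that a shift shows a gene moving apart from *Atf4* whatever the scaling. With 3 libraries against 3, the smallest exact two-sided permutation p is 0.1, and it becomes 0.15 when adjusted over the 9 ratios, so none of these can pass 0.05. Both conditions received islets from every mouse, and the permutation takes no account of such pairing. *Trib3* had 0.321, 0.402 and 0.467 footprints for each of *Atf4* in high glucose, and 1.42, 1.41 and 1.32 in low glucose. *Trib3* thus outnumbered *Atf4* in every low-glucose library and in none of the high-glucose libraries (difference of log2 ratios -1.82, SE 0.16, exact permutation p = 0.1).

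*Ddit3* (difference -2.11, SE 0.71) and *Chac1* (difference -1.12, SE 0.14) also lost ground to *Atf4* in all libraries (exact permutation p = 0.1 each). For *Ddit3* the ratios were 0.015, 0.059 and 0.060 in high glucose and 0.12, 0.23 and 0.15 in low glucose. The lowest came from high-glucose replicate 1 with its 12 *Ddit3* footprints, and the size of the difference depends on that library. For *Chac1* the ratios were 0.461, 0.451 and 0.462 in high glucose and 0.837, 1.01 and 1.17 in low glucose, so the ratio hardly varied among the high-glucose libraries. The ratios of *Sesn2* and *Cebpg* to *Atf4* overlapped between the conditions, with differences of -0.01 (SE 0.09 and 0.16, exact permutation p = 1 each). *Atf3* had a difference of -0.10 (SE 0.25, exact permutation p = 0.8). Relative to *Atf4*, all 3 high-glucose libraries were higher for *Atf5* (0.67, SE 0.10), *Ppp1r15a* (0.59, SE 0.20) and *Cebpb* (0.83, SE 0.29), each with an exact permutation p of 0.1. Each of these 3 genes nevertheless had a lower mean CPM in high glucose than in low glucose.

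**Figure D2:**
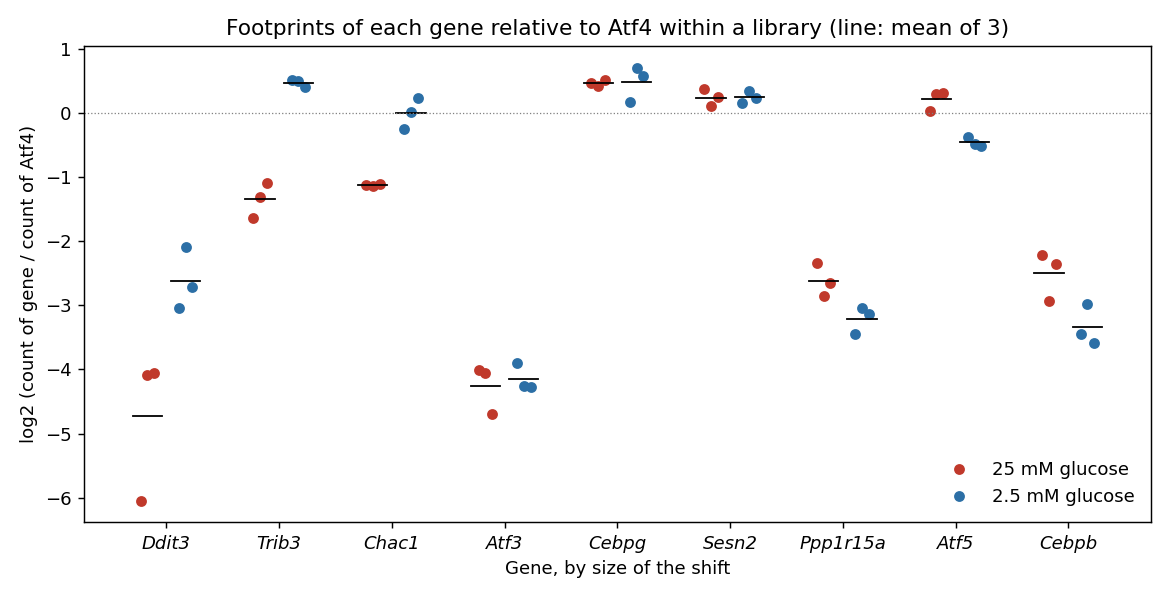
The log2 ratio of each gene's footprints to those of *Atf4* in the same library, for 3 high-glucose libraries (red) and 3 low-glucose libraries (blue), with a line at each mean. *Ddit3*, *Trib3* and *Chac1* lie lower in high glucose, *Sesn2*, *Cebpg* and *Atf3* overlap between conditions, and *Atf5*, *Ppp1r15a* and *Cebpb* lie higher in high glucose.

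The make-up of the group therefore differed between conditions. *Trib3* held 6.57% ± 1.08 of the footprints of the 10 genes in high glucose and 19.4% ± 1.77 in low glucose (SD, n = 3 per condition), and *Chac1* 7.60% ± 0.174 and 14.0% ± 1.88. *Atf5* went the other way, with 19.3% ± 1.90 in high glucose and 10.2% ± 1.19 in low glucose. The share of *Cebpg* was 23.0% ± 0.211 in high glucose and 19.6% ± 2.40 in low glucose. Of the 10 genes, only *Atf3* had shares that overlapped between the conditions. Shares within a library are tied, so where some are lower others must be higher.

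Per kilobase of exon length as the table gives it, which includes untranslated bases, the order of the levels changed too. In high glucose the order was *Atf5* (27.5 ± 1.95 CPM per kb), *Atf4* (20.1 ± 0.701), *Sesn2* (16.1 ± 1.95), *Chac1* (13.2 ± 0.539), *Cebpg* (11.7 ± 0.512), *Trib3* (8.80 ± 1.35), *Cebpb* (5.70 ± 1.503), *Ppp1r15a* (2.67 ± 0.589), *Ddit3* (1.22 ± 0.680) and *Atf3* (1.18 ± 0.314). In this order only the neighbours *Ddit3* and *Atf3* overlapped between libraries. In low glucose *Trib3* led with 73.8 ± 2.39 CPM per kb (SD, n = 3 here and above), ahead of *Chac1* (69.6 ± 12.2), *Atf4* (48.0 ± 1.04), *Atf5* (41.4 ± 2.33), *Sesn2* (38.6 ± 1.98), *Cebpg* (28.4 ± 4.93), *Ddit3* (11.1 ± 3.59), *Cebpb* (7.57 ± 1.57), *Ppp1r15a* (4.20 ± 0.577) and *Atf3* (2.99 ± 0.483). There the neighbours *Trib3* and *Chac1*, *Atf5* and *Sesn2*, *Ddit3* and *Cebpb*, and *Ppp1r15a* and *Atf3* overlapped. *Trib3* was thus first of the 10 in low glucose and 6th in high glucose. Without division by length *Cebpg*, the longest, had the highest mean in both conditions, with *Trib3* 2nd in low glucose and again 6th in high glucose. The libraries of *Cebpg* overlapped those of the next gene in both conditions, *Sesn2* in high glucose and *Trib3* in low glucose.

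Of 16 listed paralogs of these genes 13 were tested, 2 rose (15.4%, against 12.1% of all genes tested) and 0 fell (against 10.2%), with a median log2FC of 0.03. These shares are near those of all genes. *Trib1*, a relative of *Trib3* that sends C/EBP factors to degradation, rose to 76.6 ± 9.10 CPM in high glucose, against 34.7 ± 5.61 CPM in low glucose (SD, n = 3 per condition; log2FC = 1.14, edgeR adjusted p = 9.97e-07). *Cebpd*, an early-response C/EBP factor, rose to 90.5 ± 8.63 CPM in high glucose, against 37.6 ± 3.73 CPM in low glucose (SD, n = 3 per condition; log2FC = 1.27, edgeR adjusted p = 2.97e-08). *Cebpe* and *Batf3* had 0 counts in all libraries, and *Jdp2* was too low to test.

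In 8 pairs of a gene and its paralog, chosen after the values were seen, the ratio was compared within libraries. *Trib3* had 0.182, 0.268 and 0.297 footprints for each of *Trib1* in high glucose, and 5.70, 4.28 and 3.88 in low glucose (difference of log2 ratios -4.23, SE 0.27, exact permutation p = 0.1). Of this pair *Trib1* had more footprints in every high-glucose library and *Trib3* in every low-glucose library, without regard to length. *Cebpg* against *Cebpd* turned in the same manner, with ratios of 0.842, 0.640 and 0.708 in high glucose and 3.27, 4.48 and 5.12 in low glucose (difference -2.54, SE 0.22, exact permutation p = 0.1). *Sesn2* lost ground to *Sesn1* (difference -1.31, SE 0.13) and to *Sesn3* (difference -1.15, SE 0.09) in all libraries (exact permutation p = 0.1 each). For *Ppp1r15a* against *Ppp1r15b*, the phosphatase subunit made without stress, the ratios overlapped (difference -0.36, SE 0.28, exact permutation p = 0.4). Since the pairs were chosen for their values, these ratios are a description, and adjusted over the 8 pairs no p was under 0.114.

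**Figure D3:**
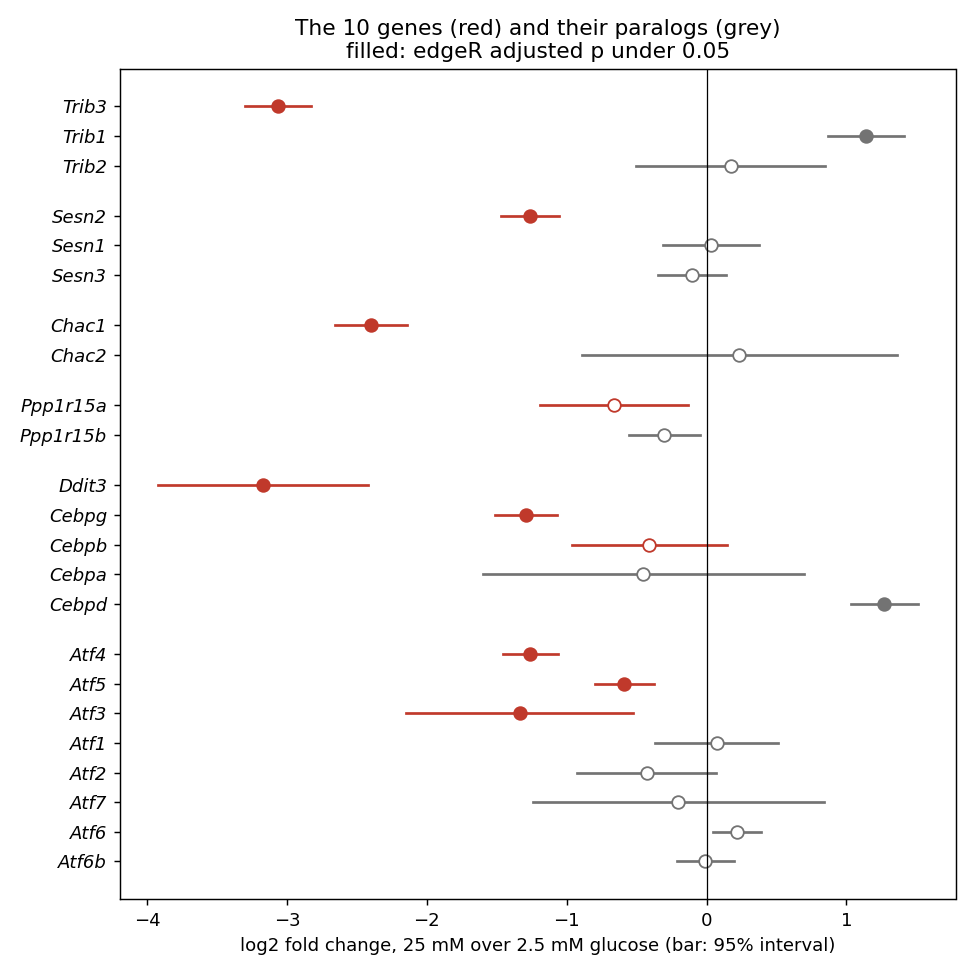
The log2FC (high over low glucose, bar: 95% interval) of the 10 genes (red) and of 13 paralogs (grey), grouped by family, with filled points at an edgeR adjusted p under 0.05. The 8 filled red points are below 0, while the filled grey points, *Trib1* and *Cebpd*, are above 0.

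Upstream of ATF4, of 18 genes for eIF2, its kinases, its exchange factor eIF2B and its phosphatase, 3 rose (16.7%, against 12.1% of all genes tested) and 5 fell (27.8%, against 10.2%), with a median log2FC of -0.27. None of the 4 eIF2 kinases passed with edgeR, and PERK (*Eif2ak3*), named here after its value was seen, had 87.9 ± 4.39 CPM in high glucose and 105 ± 11.2 CPM in low glucose (SD, n = 3 per condition; log2FC = -0.26, edgeR adjusted p = 0.0591). PERK was close to the threshold and passed with DESeq2 (log2FC = -0.27, adjusted p = 0.0396) and with limma-voom (log2FC = -0.26, adjusted p = 0.0458). The genes with the smallest adjusted p were *Dnajc3* (log2FC = 0.31), a chaperone that inhibits PERK, and *Eif2b4* (log2FC = 0.39), an eIF2B subunit, which rose, and *Eif2s1* (log2FC = -0.50), the subunit of eIF2 that is phosphorylated, and *Ppp1cb* (log2FC = -0.28), a catalytic subunit of protein phosphatase 1, which fell. Footprint counts do not measure the phosphorylation of eIF2.

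Of 9 mRNAs with upstream reading frames known to favour translation when eIF2 is phosphorylated, 4 of which are among the 10 genes, 5 fell (55.6%, against 10.2% of all genes) and 0 rose. The median log2FC was -0.59, the value of *Atf5*. Those that fell included *Atf4*, *Atf5* and *Ddit3*, already described above. Not passing outside the 10 genes were *Ppp1r15b* (log2FC = -0.30), *Eprs* (log2FC = 0.03) and *Slc35a4* (log2FC = -0.07). Outside the 10 genes, *Ifrd1*, a transcriptional coregulator, fell to 4.17 ± 1.46 CPM in high glucose, against 19.6 ± 4.01 CPM in low glucose (SD, n = 3 per condition; log2FC = -2.22, edgeR adjusted p = 2.87e-06), and *Ibtk* fell by 0.58 on the log2 scale (adjusted p = 0.000234). The counted feature is not given in the sources used here, so footprints on upstream reading frames and on the coding sequence cannot be told apart in any of these genes.

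Downstream, the targets of ATF4 were taken by class, and differences between classes were not tested. Of 14 enzymes of amino acid synthesis and one-carbon metabolism 2 rose and 2 fell (14.3% each, near the shares of all genes, 12.1% higher and 10.2% lower), with a median log2FC of -0.05. *Mthfd1l* (log2FC = 0.69) and *Cbs* (log2FC = 0.52) rose, and *Aldh1l2* (log2FC = -0.31) and *Got1* (log2FC = -0.30) fell. *Asns*, asparagine synthetase and a standard ATF4 target, named here after its value was seen, had 335 ± 4.49 CPM in high glucose and 307 ± 25.0 CPM in low glucose (SD, n = 3 per condition; log2FC = 0.13, edgeR adjusted p = 0.186). Of 13 genes listed with the aminoacyl-tRNA synthetases 2 rose and 2 fell (15.4% each, again near those shares; median log2FC 0.03), among which *Aars* (log2FC = -0.64) and *Mars1* (log2FC = -0.29) fell and *Lars* (log2FC = 0.25) and *Vars* (log2FC = 0.21) rose.

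Of 9 amino acid transporters tested, 1 rose (11.1%) and 4 fell (44.4%, against 10.2% of all genes), with a median log2FC of -0.36. *Slc3a2*, the heavy chain of several transporters, had 1017 ± 22.6 CPM in high glucose and 1683 ± 9.18 CPM in low glucose (SD, n = 3 per condition; log2FC = -0.73, edgeR adjusted p = 2.09e-11). The neutral amino acid transporter *Slc1a4* fell by 1.07 on the log2 scale (adjusted p = 6.7e-09), and *Slc38a2* rose (log2FC = 0.58, adjusted p = 1.01e-06).

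Of 22 other targets of ATF4 or CHOP tested, 12 fell (54.5%, against 10.2% of all genes) and 1 rose (4.55%), with a median log2FC of -0.38. The growth arrest gene *Gadd45a* had 7.11 ± 0.710 CPM in high glucose and 23.4 ± 3.09 CPM in low glucose (SD, n = 3 per condition; log2FC = -1.72, edgeR adjusted p = 2.52e-06). The autophagy receptor *Sqstm1* fell by less (log2FC = -0.42, adjusted p = 1.49e-07). The 1 gene that rose was *Txnip* (log2FC = 1.38, adjusted p = 1.96e-11), a thioredoxin inhibitor that is best known as a gene induced by glucose itself.

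The other arms of the unfolded protein response, those of IRE1 and ATF6, had 8 of 20 genes higher (40.0%, against 12.1% of all genes tested) and 5 lower (25.0%, against 10.2%) in high glucose, with a median log2FC of 0.14. The chaperone *Hyou1* (log2FC = 0.28) and the transcription factor *Xbp1* (log2FC = 0.40) rose, and the calcium-binding chaperone *Calr* (log2FC = -0.41) and the ER degradation gene *Herpud1* (log2FC = -0.86) fell. Over all these lists together, paralogs included and the 10 genes left out, 18 of 108 tested genes rose and 32 fell, with a median log2FC of -0.10.

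**Figure D4:**
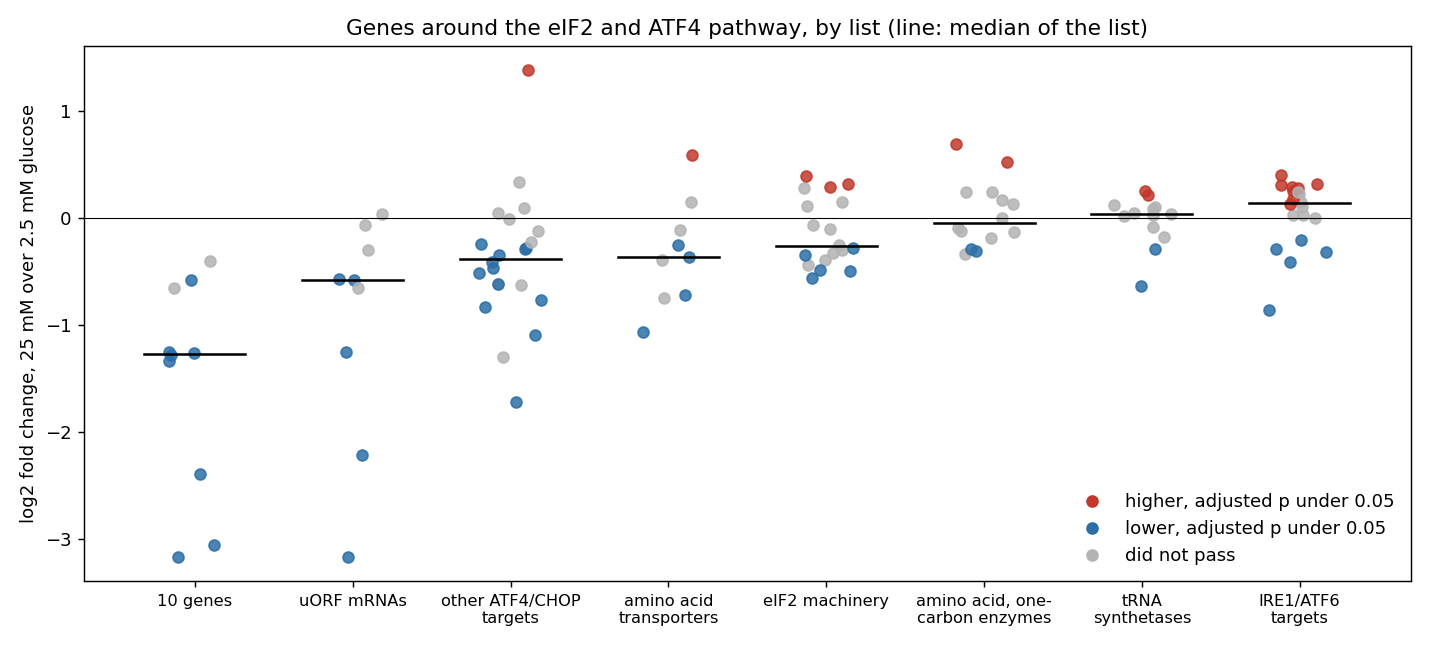
The log2FC (high over low glucose) of each tested gene in 8 lists, in red where higher and in blue where lower at an edgeR adjusted p under 0.05, in grey where it did not pass, with a line at each list's median. The median is -1.27 for the 10 genes and -0.59 for mRNAs with upstream reading frames (uORF, which shares 4 of the 10), and lies between -0.38 and 0.14 for the others.

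With the 10 genes left out, patterns were compared over 7771 genes that averaged 10 CPM or more. The 5 of these whose pattern over the 6 libraries was most like that of *Atf4* (Euclidean distance between centred log2 CPM) were *Plk3* (0.143), *Ctrb1* (0.217), *Zfp1* (0.221), *Slc1a4* (0.232) and *Cat* (0.267). *Slc1a4* is on the transporter list above, and *Ctrb1*, a chymotrypsinogen, is one of the acinar markers. *Plk3*, a stress-related polo-like kinase, had 67.2 ± 1.78 CPM in high glucose and 150 ± 6.86 CPM in low glucose (SD, n = 3 per condition). Among the 10 genes themselves, *Sesn2* lay at 0.228 from *Atf4*, and *Trib3* lay at 1.33 from *Ddit3*, nearer than any of the 7771 genes compared. Of the 7771 genes, those nearest to *Ddit3* were *Cela2a* (1.73), the adenosine receptor gene *Adora2b* (1.75), *Gm31518* (1.80), the orphan receptor gene *Gpr52* (1.81) and the cytokine gene *Il20* (1.83), at larger distances than for *Atf4*. *Cela2a*, an acinar elastase, had 4.23 ± 0.556 CPM in high glucose and 25.9 ± 3.88 CPM in low glucose (SD, n = 3 per condition).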

How the data were processed

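Both conditions received islets from every mouse, and 7 to 9 mice were pooled for a replicate. The authors removed rRNA and tRNA reads, mapped the rest with TopHat2 (version 2.0.12, build mm10 in the submitters' processing notes) and made the deposited counts per gene with HTSeq (version 0.9.1). Values are raw counts, and the authors' own test used DESeq2 (version 1.14.1). Start and end columns are not on mm10, so no positions are printed from the table, and its identifiers, chromosomes, strands, exon lengths and overlaps between genes (from its own positions) are used. No coding length was given, so levels were divided by exon length in place of the coding length that had been planned.

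The test was edgeR (version 4.0.16, in R version 4.3.3), run after filterByExpr and TMM as the quasi-likelihood F test with Benjamini-Hochberg adjustment, and genes were called at an adjusted p under 0.05. The method was tested on simulated data. CPM used no prior count, and log2 CPM for patterns used a prior count of 2. Paralog ratios had 0.5 added to each count. Intervals of the log2FC are 95% intervals from its SE. Ratios were compared by exact two-sided permutation, without pairing.

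The 10 genes and all lists were chosen with earlier results of these data known. Named genes are the 10, of each list the 2 higher and the 2 lower genes with the smallest adjusted p, and the 5 patterns nearest to *Atf4* and to *Ddit3*; exceptions are stated. The 18 alternatives were DESeq2 (version 1.42.0), limma-voom (limma version 3.58.1), other scaling, filters, thinning, robust dispersion, a replicate block and leaving out each library. Libraries of a condition differed by more than sampling noise, so none is a copy. Figures were drawn with Python (version 3.11.15), matplotlib (version 3.10.9) and numpy (version 2.4.6). Protein identity between the genes, RNA-seq, translation efficiency and footprint positions were not analysed here.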

Additional observations from a re-analysis of the deposited data

How the results depend on the processing

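Each of the 10 genes had a negative log2FC under all 18 alternatives, and 0 rose under any. The number that fell was 8 in all but 3 of them, with 9 by limma-voom, 9 without high-glucose replicate 1 and 7 without high-glucose replicate 3. Of 180 values of the 10 genes over 18 alternatives, 175 kept their side of the threshold, 2 calls of *Atf3* were lost and *Ppp1r15a* was called in 3. Of 1943 such values of 108 other pathway genes, 44 calls were lost, 40 were gained and 0 changed direction while called. Over all genes, leaving out 1 library gave 998 to 1237 lower and 1180 to 1437 higher genes. Library totals only gave 1585 lower and 1311 higher genes, against 1333 lower and 1579 higher with TMM, and moved the median log2FC by -0.05.

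Whether libraries with the same replicate number came from the same mice is not known. The correlations below are too weak to decide it. The deviations of libraries with the same number correlated at 0.0068 to 0.0105 across genes, although each library correlated best with its own number, and the labels do not say that a number marks shared mice. With the replicate number as a block, 8 of the 10 genes fell and 0 rose, and of all genes 1308 fell and 1561 rose. It changed no call of the 10 genes, and among the pathway genes the call of *Slc7a11* alone was gained.

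The number of footprints limits *Atf3* and *Ddit3* most, with at least 36 and 12 in a library. The motif TGATGNAA was in 2 of the 10 genes and in 3.45% of windows when only the 250 bases before the start were searched.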
